A study of Mus musculus with 2 samples.

Results

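The suppressors of cytokine signalling are a family of 8 intracellular proteins, encoded in the mouse by Socs1 to Socs7 and Cish. The members were taken by symbol from both deposited tables, and all 8 were found among 16263 genes. The tables describe mouse bone marrow-derived macrophages on the C57BL/6 background. One library came from wild-type (WT) animals and the other from animals whose genotype the labels give as SIRPalpha-/-, called SIRPα-KO or the knockout library here. SIRPα is a receptor on macrophages and other myeloid cells that dampens their activity when it meets CD47. Marrow cells of both groups had been cultured for 5 days with macrophage colony-stimulating factor (M-CSF). Both groups then received interferon-γ at 20 ng/ml together with lipopolysaccharide (LPS) at 100 ng/ml for 6 h, and mCD47.ex was present in both. No sample without stimulation or without mCD47.ex was analysed here, so the values do not show how far the treatment itself moved any transcript. The cells of 5 mice per genotype were pooled before RNA was extracted, which leaves 1 library per genotype and no replicate error. Every difference below is therefore a difference between these 2 libraries, and no p-value is given.

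SOCS proteins are feedback brakes on cytokine receptors. Cytokines activate receptor-bound Janus kinases (JAKs), which phosphorylate STAT transcription factors, and the STATs switch on Socs genes. Each SOCS protein holds an SH2 domain that docks on phosphorylated tyrosines and a C-terminal SOCS box that recruits elongins B and C and cullin 5, a ubiquitin ligase. SOCS1 and SOCS3 also carry a short region that blocks the kinase directly. In macrophages SOCS1 is best known for restraining interferon-γ signalling and SOCS3 for restraining the interleukin-6 receptor chain gp130.

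The family was dominated by Socs1 and Socs3 in both libraries, and none of the 8 genes differed by 2-fold under the rule used for a call. Socs3 was 1.52-fold lower in SIRPα-KO and Cish 1.66-fold lower, both as plain ratios of the deposited values. Socs2, the scarcest member in WT, was 2.42-fold higher as a plain ratio but short of the rule. Socs1 and Socs7 were within 1.07-fold of equality.

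Values are FPKM, fragments per kilobase of transcript scaled by the library's mapped fragments, a unit inferred from the values. A gene was kept at 1 FPKM or more in 1 library, and it was called when its values differed at least 2-fold after 1 was added to each. This pseudocount damps the ratios of scarce genes. The log2 ratios given below are of SIRPα-KO over WT with this pseudocount. All 8 members were kept, 0 were called higher and 0 lower. Among all 10092 kept genes, 3.43% were called higher and 4.3% lower. The members' median log2 ratio was -0.16, with 3 members above 0 and 5 below. The median of all kept genes was 0.06, and 43.8% of them lay below 0. The median size of the log2 ratio without regard to sign was 0.32 for the members and 0.28 for all kept genes.

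The libraries held about 11200000 reads (WT) and 11100000 reads (SIRPα-KO), estimated from the steps between low values. Sirpa itself was at 154 FPKM in the WT library and 71.5 FPKM in the knockout library, so its transcript was lower but still present in the library labelled as knockout. Among 12 macrophage markers, 11 were listed, all 11 were kept and 2 were lower, among them Csf1r, and Lyz2 was at 7106 and 7208 FPKM. Neutrophil markers summed to 433 FPKM in the WT library and 208 FPKM in the knockout library, with 5 of 9 kept members lower and 0 higher. Dendritic cell markers summed to 60.6 and 194 FPKM, with 3 of 8 kept members higher and 1 lower, and most of the sum in SIRPα-KO was the chemokine Ccl22 (11.2 and 139 FPKM). Markers of B cells (6.42 and 2.67 FPKM in sum), T and NK cells (29.1 and 31.7), mast cells and basophils (7.53 and 10.1) and stroma and endothelium (25.9 and 33.1) had 0 calls, and Cd3g and Tek were at 0 in both. The pools also differed in sex-linked RNA: Xist was at 47.5 FPKM in the WT library and 0.91 in the knockout library, and the Y-linked gene Eif2s3y at 0 and 21.4 FPKM, so genotype and sex cannot be told apart. In bulk RNA, fewer cells of a type and less RNA per cell cannot be told apart either. The part of other cell types in the SOCS values was not tested.

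**Figure D1:**
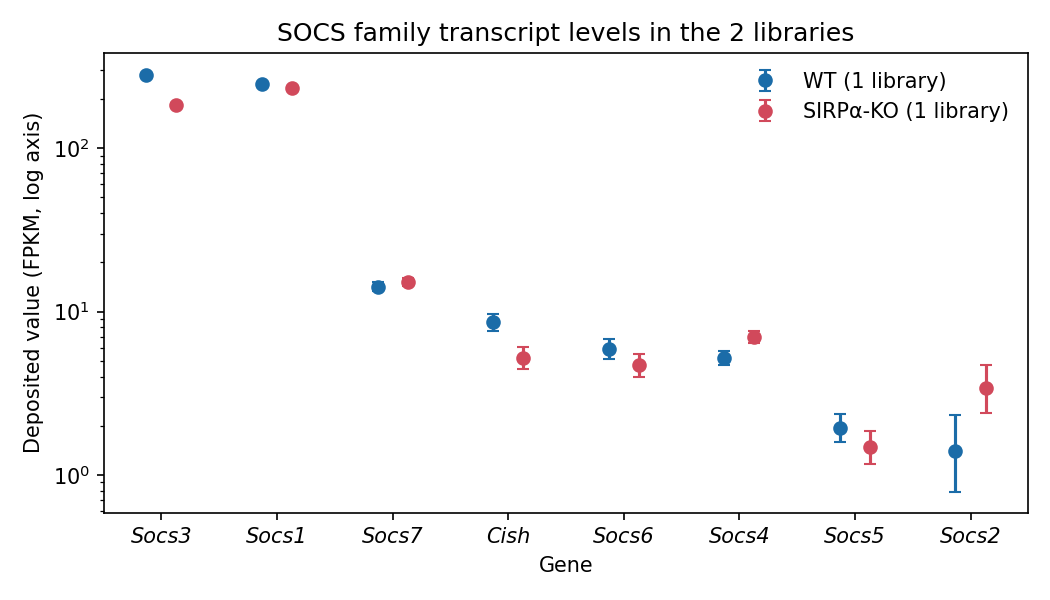
Deposited FPKM (log axis) of the 8 SOCS family genes in the WT library (blue) and the SIRPα-KO library (red), ordered by the WT level. Points are the values and bars the exact 95% Poisson intervals of the estimated reads, which cover counting error only. Socs3 and Socs1 lie above 180 FPKM in both libraries and the other members below 16 FPKM.

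Socs1 and Socs3, the members with a kinase-blocking region, made up 93.4% of the summed FPKM of the family in WT and 91.9% in SIRPα-KO. The family sum was 561.5 FPKM in the WT library and 453.6 FPKM in the knockout library. Most of that gap came from Socs3 alone.

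Socs1 (gene number 12703, chromosome 16) was at 245 FPKM in the WT library and 233 FPKM in the knockout library. It ranked 321st of all genes in WT and 304th in SIRPα-KO, inside the top 2%. Its log2 ratio was -0.07, and 85% of kept genes lay at least as far from 0. The values stand for about 7656 and 7203 reads, and the counting interval of the plain ratio was 0.919 to 0.98. Counting error was therefore small beside any 2-fold difference, while the spread between cultures or mice is unknown. Both Socs1 transcripts listed in the files were matched, and no 50-base word of them occurred in another gene.

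Socs3 (gene number 12702, chromosome 11) was at 279 FPKM in the WT library and 184 FPKM in the knockout library. Its rank moved from 268th to 421st. The log2 ratio was -0.60, and the plain ratio of WT over SIRPα-KO was 1.52 with a counting interval of 1.47 to 1.57. Among kept genes 9.94% were at least as low in ratio. Among the 867 genes at 100 FPKM or more in 1 library the share was 14.6%, and 11.1% of these abundant genes were called. A difference of this size was thus common in this comparison of 2 pools. No 50-base word of Socs3 occurred in another gene.

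The order of these 2 members was opposite in the libraries. The plain ratio of Socs3 to Socs1 was 1.14 in WT, with a counting interval of 1.1 to 1.17. In SIRPα-KO it was 0.788, with a counting interval of 0.76 to 0.817. A ratio between genes of one library does not depend on how the libraries were scaled. It does depend on the transcript lengths the authors used, which the tables do not list.

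Promoter sequences were searched for motifs through which STATs and interferon regulatory factors are known to act. RefSeq promoter windows of the GRCm38.p6 assembly, a later build than the mm9 build named in the submitters' notes, were held for 4 of the 8 members (Socs1, Socs3, Socs4 and Cish). Each window runs from 250 bases before to 50 bases after an annotated start. Both strands were searched for the STAT motif GAS (TTCNNNGAA), for the core of the interferon-stimulated response element (GAAANNGAA) and for a κB-like motif (GGANTTTCC). Of 32851 windows of this length in the table, 8.3% held GAS, 8.56% the response element core and 1.25% the κB-like motif. Socs1 had the core at -83 and -77, which overlap each other, and no GAS. Socs3 had 1 GAS at -154 of a start that lies 180 bases upstream of the start of its matched GENCODE transcript. Its window ends 50 bases after the RefSeq start, so the bases just before the matched start were not searched. Cish had GAS at 1 and 12, that is, directly at the RefSeq start, and the matched GENCODE transcript begins 633 bases further upstream. That upstream start lies outside the window, so the bases before it were not searched either. Of all windows, 0.624% held the core 2 or more times and 0.457% held GAS 2 or more times. Socs4 held none of the 3 motifs. A match is a run of letters and does not show binding.

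The printed stretches show these matches in capitals, and Socs1, Socs3 and Cish are shown because their windows held a match. The Socs1 stretch is the whole 250 bases before its start (chr16:10785537-10785786, minus strand). The Socs3 stretch (chr11:117969502-117969531, minus strand) and the Cish stretch (chr9:107296654-107296683, plus strand) are 30 bases around the GAS matches.
Socs1: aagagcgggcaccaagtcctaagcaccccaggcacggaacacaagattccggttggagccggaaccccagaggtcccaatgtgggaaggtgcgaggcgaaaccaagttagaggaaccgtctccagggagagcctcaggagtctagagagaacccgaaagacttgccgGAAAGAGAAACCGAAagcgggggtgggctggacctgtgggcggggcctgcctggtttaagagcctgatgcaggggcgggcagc
Socs3: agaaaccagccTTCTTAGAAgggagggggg
Cish: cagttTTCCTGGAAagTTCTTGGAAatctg

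Cish and Socs2 are the members most often described as targets of STAT5, the factor used by growth hormone, prolactin and granulocyte-macrophage colony-stimulating factor. CIS, the product of Cish, competes with STAT5 for receptor docking sites, and SOCS2 restrains the growth hormone receptor. They differed in opposite directions. Cish (gene number 12700, chromosome 9) was at 8.63 FPKM in the WT library and 5.19 FPKM in the knockout library, a log2 ratio of -0.64. The values stand for about 275 and 164 reads, and the plain ratio of WT over SIRPα-KO was 1.66 with a counting interval of 1.36 to 2.03. Antisense models Gm17040 and Gm17041 overlap Cish and share 15.8% of its 50-base words. They have no row in the tables, and the use of strand is not given in the sources used here, so their reads cannot be told apart from those of Cish.

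Socs2 (gene number 216233, chromosome 10) was at 1.41 FPKM in the WT library and 3.41 FPKM in the knockout library, a log2 ratio of 0.87. With its shortest listed transcript these values stand for about 15 and 36 reads. The plain ratio of SIRPα-KO over WT was 2.42, and its counting interval, 1.29 to 4.76, was the widest of the family. Among kept genes, 4.68% were at least as high in ratio. With a pseudocount of 0.1 the log2 ratio was 1.22 and Socs2 became the 1 member called higher, under a rule that called 5.84% of kept genes higher and 6.7% lower. Of its 50-base words, 15.1% also occur in Gm8000 and Gm9847, which have no row in the tables, so the value is uncertain to that extent. Cish exceeded Socs2 by 6.12-fold in WT and by 1.52-fold in SIRPα-KO. In SIRPα-KO the counting intervals of the 2 levels overlapped (4.43 to 6.05 FPKM for Cish, 2.39 to 4.72 for Socs2). Both ratios also depend on the length used for Socs2, whose matched transcripts run from 948 to 2222 bases.

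The remaining members are less tied to cytokine induction. SOCS4 and SOCS5 are known to act on the epidermal growth factor receptor, SOCS6 on the insulin receptor and KIT, and SOCS7 on insulin receptor substrates. Socs7 (gene number 192157, chromosome 11) was the most abundant of them, at 14.2 FPKM in the WT library and 15.2 FPKM in the knockout library. Its log2 ratio was 0.09, and the counting interval of the plain ratio, 0.983 to 1.16, included equality. Socs4 (gene number 67296, chromosome 14) was at 5.23 and 7 FPKM, a log2 ratio of 0.36. Its counting interval was 1.17 to 1.53. Socs4 was thus higher in SIRPα-KO by more than counting error, although 22.1% of kept genes were at least as high.

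Socs5 and Socs6 were both somewhat lower in SIRPα-KO. Socs5 (gene number 56468, chromosome 17) was at 1.95 FPKM in the WT library and 1.48 FPKM in the knockout library, a log2 ratio of -0.25. The counting interval of its plain ratio, 0.551 to 1.02, included equality. Socs6 (gene number 54607, chromosome 18) was at 5.89 and 4.7 FPKM, a log2 ratio of -0.27. Its interval of 0.638 to 0.988 ended just short of equality. Socs6 shares 24.5% of its words with Gm13188 and Gm9449, and the antisense model AC118614.1 overlaps it, so its value is uncertain to that extent.

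**Figure D2:**
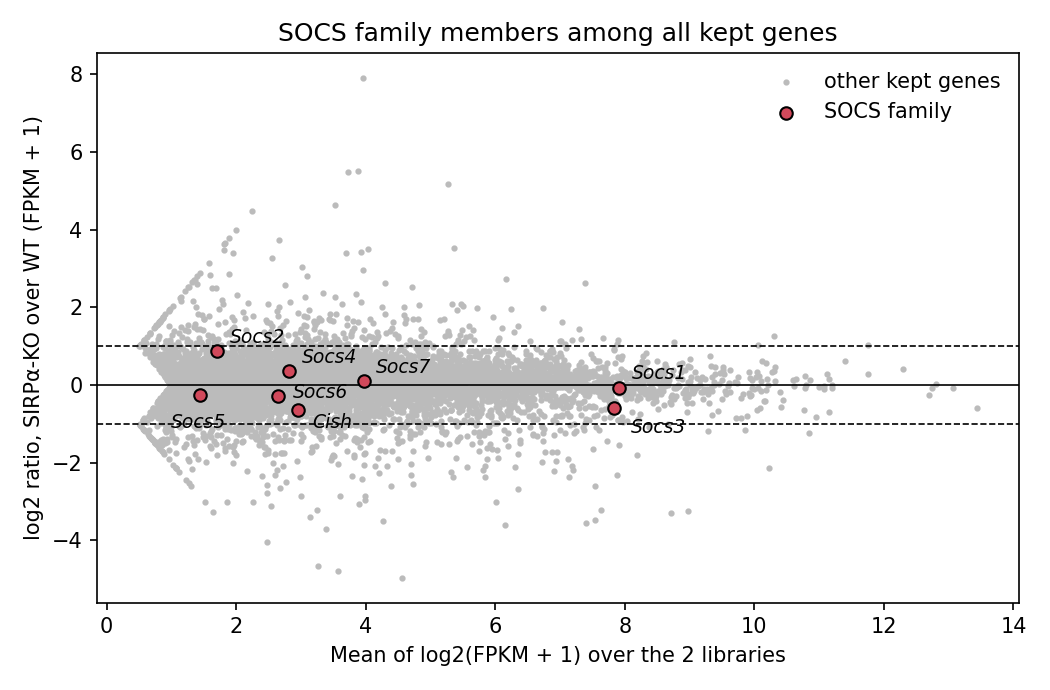
Log2 ratio of SIRPα-KO over WT against the mean log2 level for all 10092 kept genes (grey) and the 8 SOCS family genes (red, named), both on the FPKM + 1 scale. Dashed lines mark the 2-fold limits. All members lie between the limits, Socs2 closest to the upper one at 0.87 and Cish lowest at -0.64.

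Ordered by level, the WT library ran Socs3, Socs1, Socs7, Cish, Socs6, Socs4, Socs5 and Socs2. Socs6 (5.09 to 6.78 FPKM by counting error) and Socs4 (4.73 to 5.77) overlapped there, as did Socs5 (1.59 to 2.37) and Socs2 (0.789 to 2.33). The SIRPα-KO library ran Socs1, Socs3, Socs7, Socs4, Cish, Socs6, Socs2 and Socs5. Cish (4.43 to 6.05 FPKM), Socs6 (3.98 to 5.51) and Socs2 (2.39 to 4.72) all overlapped one another. The order of the scarce members was therefore resolved only in part. From the highest to the lowest member the WT level spanned 198-fold.

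With a limit of 1.5-fold in place of 2-fold, Socs2 was called higher and Socs3 and Cish lower. That rule called 10.9% of all kept genes higher and 10.2% lower. The other 5 members stayed inside the limit. Socs3 and Cish lay close to it, at log2 ratios of -0.60 and -0.64.

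The genes also differ in structure. In the GENCODE models matched to the listed transcripts, Socs1, Socs3, Socs4, Socs5 and Socs6 have their whole coding sequence in 1 exon, as do 6.8% of the 14845 genes compared. Socs2 has 2 coding exons, Cish 3 and Socs7 9. The proteins fall into a short class of 198 (SOCS2), 212 (SOCS1), 225 (SOCS3) and 257 residues (CIS), and a long class of 436 (SOCS4) to 579 residues (SOCS7). The 4 short proteins include the abundant pair and both STAT5-linked members. The pentamer ATTTA, the core of AU-rich elements that mark unstable transcripts, was counted without overlaps, so copies that share bases were not all counted. By this count it occurred 4 times in the 3′ untranslated region of Socs3 (1474 bases) and 0 times in that of Socs1 (1993 bases). Socs4 held it 17 times in 5182 bases. Per kilobase this was 2.71 for Socs3, 3.28 for Socs4 and 0 for Socs1, and from 0.965 (Socs7) to 1.97 (Socs6) for the other 5 members, against a median of 1.2 over 14682 genes. Of those genes 22.5% had a density at least as high as that of Socs3, and 16% one at least as high as that of Socs4.

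The annotation terms deposited with the values tie some members together. Socs1 and Socs3 share the terms for regulation of cytokine-mediated signalling, which 0.197% of listed genes carry, and for response to molecules of bacterial origin, which 0.885% carry. Socs1 and Socs2 share negative regulation of an intracellular protein kinase cascade (0.129%). Cish and Socs2 share cell growth (1.14%). Response to estrogen stimulus was shared by Socs1, Socs2 and Socs3 (0.658%), and intracellular protein kinase cascade by Socs3, Socs5 and Socs6 (0.443%). Socs2, Socs5 and Socs7 shared the transmembrane receptor protein tyrosine kinase signalling pathway (2.08%), and Cish, Socs3 and Socs6 the broad term binding (10.3%). No term was common to more than 3 members.

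Further gene lists show the pathway around the family, with 9 lists from ligand to target. They were chosen with earlier results of these data known, so their counts are descriptions. Beside them stand the shares over all kept genes, 3.43% called higher and 4.3% lower. In the list of ligands that signal through JAKs, 13 of 19 listed genes were kept, 4 were higher, 2 lower and 7 neither, with a median log2 ratio of 0.62. Il6, which signals through gp130, was at 93.6 FPKM in the WT library and 257 FPKM in the knockout library. Il27 (292 and 633 FPKM) and Ebi3 (92.5 and 192 FPKM) encode the chains of interleukin-27, another gp130 ligand. Ebi3 was just under 2-fold, at 0.98, with trimmed-mean scaling. Ifng was at 0.52 and 3.24 FPKM. Lower were Il10, a known inducer of Socs3, at 39.6 and 7.37 FPKM, and Osm, a gp130 ligand, at 7.75 and 2.17 FPKM. Known inducers of Socs3 thus lay on both sides.

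Receptors that the family restrains went both ways. Of 31 listed genes 21 were kept, 2 were higher, 3 lower and 16 neither, with a median of -0.23. Higher were Il6st, which encodes gp130, the docking site of SOCS3 (4.27 FPKM in the WT library, 12.2 FPKM in the knockout library), and Il12rb2, a chain of the interleukin-12 receptor (7.5 and 18.5 FPKM). Lower were Csf1r, the M-CSF receptor (248 and 110 FPKM), Csf2rb, the shared β chain of the granulocyte-macrophage colony-stimulating factor receptor (288 and 128.5 FPKM), and Il10rb, a chain of the interleukin-10 receptor (122 and 54.4 FPKM). The most abundant was Il2rg, the common γ chain, at 352 and 428 FPKM. Among Janus kinases and STATs all 11 genes were kept, with a median of 0.06. Stat4, a target of interleukin-12 signalling, was the 1 gene called higher (5.1 and 18.4 FPKM), and 0 were lower.

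The ligase partners of the SOCS box had 0 calls among 13 kept genes. With 3.43% of all kept genes called higher and 4.3% lower, 0 calls in so short a list says little. All 13 lay above 0 on the scale as deposited, with a median of 0.29, while 43.8% of all kept genes lay below 0. With trimmed-mean scaling 10 lay above 0, and Nedd8, Ube2m and Nae1 lay below. The elongin B gene (listed as Tceb2), the most abundant partner, was at 85.3 FPKM in the WT library and 90.2 FPKM in the knockout library, and Cul5 was at 4.53 and 5.74 FPKM. Other proteins with a SOCS box had 0 calls among 14 kept genes and a median of -0.15, and Wsb1, the most abundant, was at 62.8 and 63.3 FPKM. Adaptors and substrates that the family binds had 0 calls among 13 kept genes, and Grb2, the most abundant, was at 97.8 and 76.8 FPKM.

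Among other brakes on JAK-STAT signalling, 14 genes were kept, of which 0 were higher and 1 was lower, with a median of 0.03. The lower gene was Cbl, a ubiquitin ligase of receptor kinases, at 19.2 FPKM in the WT library and 7.05 FPKM in the knockout library. Usp18, a brake on the type I interferon receptor and the most abundant of the list, was at 451 and 292 FPKM, a log2 ratio of -0.63. Ptpn6, which encodes SHP-1, a phosphatase that SIRPα recruits, was at 296 and 279 FPKM and was named after its values were seen.

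Known targets of the STATs were compared as a further readout. Of 16 STAT3 targets 1 was higher and 3 were lower, with a median of -0.19. Fgl2, a secreted immune regulator, was at 818 and 1964 FPKM. Il1rn, the interleukin-1 receptor antagonist (2810 and 1197 FPKM), Il21r (16.3 and 5.8 FPKM) and Hp, haptoglobin (25.8 and 6.44 FPKM), were lower.

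Of 12 STAT5 targets 0 were higher and 3 lower, with a median of -0.33. Ccnd1, cyclin D1, was at 42.1 FPKM in the WT library and 4.88 FPKM in the knockout library. Osm, listed above, and Id1 (2.2 and 0.5 FPKM) were the others. The most abundant, Irf8, a macrophage transcription factor, was at 1081 and 904 FPKM. By sign alone, 8 of the 12 targets lay below 0 and 4 above. Cish lay on the side of the 8 and Socs2 on the side of the 4.

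**Figure D3:**
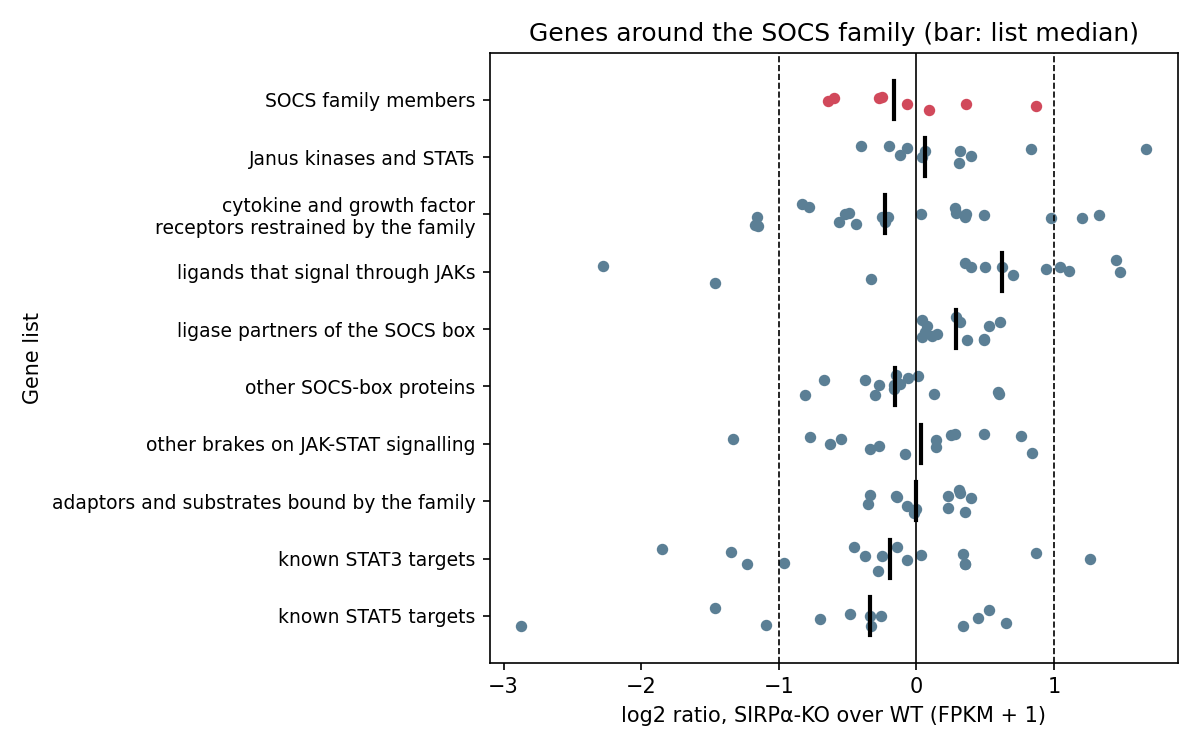
Log2 ratios (FPKM + 1) of SIRPα-KO over WT for kept genes of the SOCS family (red) and of 9 lists around it (blue). Each point is a gene, black bars are list medians and dashed lines the 2-fold limits. The ligand list has the highest median (0.62), and the 8 SOCS family genes stay between the limits.

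A change of pseudocount or filter cannot reverse the direction of a ratio, so only the 3 other scalings could. Under each of those scalings every member kept its direction. Over all pseudocounts, filters and scalings the log2 ratio of Socs3 ranged from -0.67 to -0.56 and that of Cish from -0.72 to -0.61. That of Socs2 ranged from 0.82 to 1.22. Socs1 (-0.14 to -0.04) and Socs7 (0.03 to 0.12) stayed near 0 on their own sides.

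**Figure D4:**
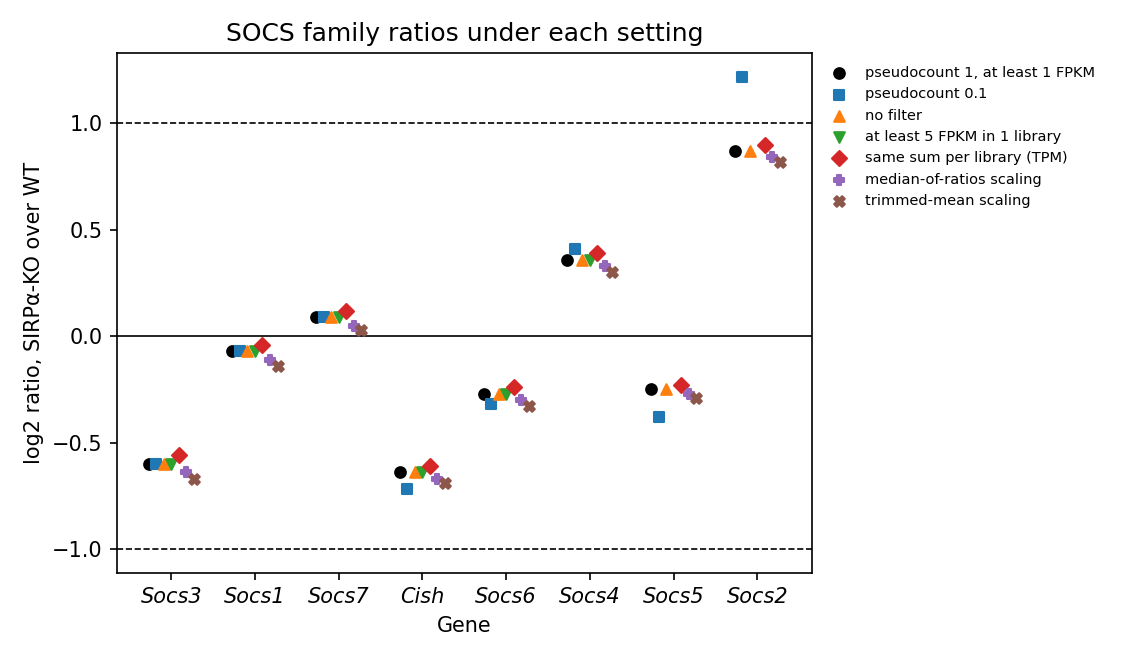
Log2 ratio of SIRPα-KO over WT of each SOCS family gene under each pseudocount, filter and scaling (marker shapes), with dashed lines at 2-fold. A gene has no marker where a filter left it out (Socs5 and Socs2 at a minimum of 5 FPKM). The value of Socs2 with a pseudocount of 0.1 (1.22) is the 1 point past a limit.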

How the data were processed

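RNA was sequenced from 1 pooled library per genotype. The authors deposited 1 table per library with 1 value per gene, taken to be FPKM because the steps between low values scale with transcript length and the sums differ (444294 in WT, 433460 in SIRPα-KO). Per the submitters' processing notes, mm9, R 3.3.3 and DESeq2 were used, in roles not stated there. Which aligner and counter were used, and whether strand was, is not given in the sources used here.

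Ratios were differences of log2(FPKM + 1) for genes at 1 FPKM or more in 1 library. Reads were estimated from genes with 1 transcript. Of 1115 low WT values 62% lay within 0.15 of a whole read (31.4% with lengths shuffled), and of 1144 low SIRPα-KO values 59.5% did (31.2%). Too few values came out whole for a count test. Intervals are exact (Clopper-Pearson for ratios, Poisson for levels) at 95% on these estimates, using the shortest matched transcript, and cover counting error only. Members and lists were chosen with earlier results of these data known. Named genes are all members, Sirpa, and from each pathway list up to 4 called genes per direction and the most abundant. Results for some of these genes, and for 1 list, are left out here. Cd47, also in that rule, was at 142 FPKM (WT) and 188 FPKM (SIRPα-KO). Genes of marker lists, sex-linked genes, Cul5 and Ptpn6 were added after their values were seen. With 2 values per gene no gene was named for a pattern like a member's. Lengths came from GENCODE M21, promoters from RefSeq GRCm38.p6 and chromosomes from RefSeq. Gene numbers are those deposited with the values. Python 3.11.15, pandas 2.3.3 and scipy 1.17.1 were used. Alternatives were other pseudocounts, filters, fold limits and scalings.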

Additional observations from a re-analysis of the deposited data

How the results depend on the processing

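With a pseudocount of 0.1, 1 member was called higher (Socs2, log2 ratio 1.22) in place of 0. With a 1.5-fold limit 1 member was called higher and 2 lower. Under each of the 3 other scalings the counts of members called stayed at 0. A 3-fold limit, a stricter minimum (5 FPKM) and dropping the filter gave 0 too, but these settings could not have added a call. Every member was already kept, and a stricter limit or minimum can only remove calls. The members' median log2 ratio kept its sign, between -0.22 and -0.13. Of 46 member ratios recomputed under the pseudocount, filter and scaling alternatives, 45 kept their direction and side of the 2-fold limit, 1 passed it and 0 reversed. A filter leaves a ratio as it was, and a pseudocount cannot reverse one. Part of this agreement was therefore fixed in advance, and only the scalings could have reversed a direction. Over all genes, the 346 higher and 434 lower calls became 589 and 676 with a pseudocount of 0.1, and 1104 and 1032 with a 1.5-fold limit. Scaling moved the median of all kept genes by -0.06 to 0.03. The calls of Ebi3 and S100a9 were lost under 1 scaling each, and Ifng, Id1, Dpp4 and Elane fell under the 5 FPKM minimum. Of 272 list counts recomputed, 238 stayed equal or within 1.5 times, and a count that stayed at 0 was scored as equal. Many list counts were 0 from the start, so this share says little about the others. With a 3-fold limit, for example, the receptor list went from 2 higher and 3 lower to 0 and 0. Leaving out a library was not possible, and depth limits Socs2 most. No paired analysis was possible because each genotype has 1 library.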
